A study of Mus musculus with 3 samples.

Results

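Liver of untreated TMX-/- mice was set against liver of untreated wild-type mice on 1 microarray with 2 channels, without LPS/GalN (lipopolysaccharide with D-galactosamine) in either. The genes described are the 10179 that carry a name and were valued on each of the 3 arrays of the series, out of 11351 named genes valued on this array and 13539 valued on any. Each value is the authors' deposited log ratio, read as TMX-null over wild-type on the log2 scale and centred on the median of these genes, so that 0 is the ratio of the middle gene and 1 is 2-fold higher in TMX-null liver. All livers came from female C57BL/6 mice; no age is given. The Cy3 channel of this array held RNA of untreated TMX-/- liver, and its Cy5 channel held RNA of untreated wild-type liver, which is also the labelled reference of the other arrays; whether it was the same preparation is not given. Those arrays held liver of wild-type and of TMX-/- mice 24 h after an intraperitoneal injection of 3 ng LPS with 10 mg GalN, and the title of the untreated TMX-/- array names 24 h too. Which part of the gene was removed, and whether 1 mouse or a pool stands behind a channel, is not given in the sources used here.

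TMX, now named Tmx1, is a membrane-anchored protein of the endoplasmic reticulum (ER). It carries a thioredoxin-like domain on the luminal side and belongs to the protein disulfide isomerases, the enzymes that form, break and rearrange disulfide bonds while secreted and membrane proteins fold. The liver depends heavily on this machinery, since hepatocytes secrete most plasma proteins, among them albumin, apolipoproteins and clotting factors. Hepatocytes also make cholesterol and fatty acids under the control of the SREBP transcription factors, which are themselves held in the ER membrane until sterols run low, while resident macrophages (Kupffer cells), lymphocytes, stellate cells and endothelial cells line the sinusoids.

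The comparison has 1 array, with no dye exchange, so no test was possible and every value describes these RNA samples. The only error at hand is the spread between probes of the same gene, whose SD for a single probe was 0.42 log2 over 81 genes with 2 probes, and 0.33 without Ifi205, whose probes stood at 0.09 and 3.40. Over all 10179 genes the SD was 0.40, against 0.48 for wild-type and 1.04 for TMX-null liver after LPS/GalN. The direction of the ratio is not stated in the labels and is likely rather than settled, since it rests on Tmx1 alone. Were the numerator the other channel, every "higher" would read "lower", and with a natural logarithm every fold would be raised to the power 1.44. The table holds ratios without signal, so a value does not show that a transcript was present: Kdm5d, a Y-linked gene that female mice lack, was valued at -0.08, and 155 olfactory receptor genes had values on all 3 arrays.

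At 2-fold, 181 genes were higher in untreated TMX-null liver (1.78% of those measured) and 85 were lower (0.835%). At 1.5-fold the counts were 710 higher (6.98%) and 566 lower (5.56%). Tmx1 itself lay apart from all other genes at the low end, as the plot of ranked ratios shows, while the high end ran without a gap of that size up to Milr1. Of all 10179 genes 973 (9.56%) belonged to any of 71 gene lists of liver processes and cell types, and so did 23 of the 181 that were higher (12.7%) and 9 of the 85 that were lower (10.6%). Macrophage or T and NK cell markers made up 30 of all genes (0.295%) and 9 of the 181 higher genes (4.97%). Those lists have high medians on this array (0.80 and 0.67) and were chosen with earlier results of these data known. The share therefore follows from those medians and is no separate result.

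**Figure D1:**
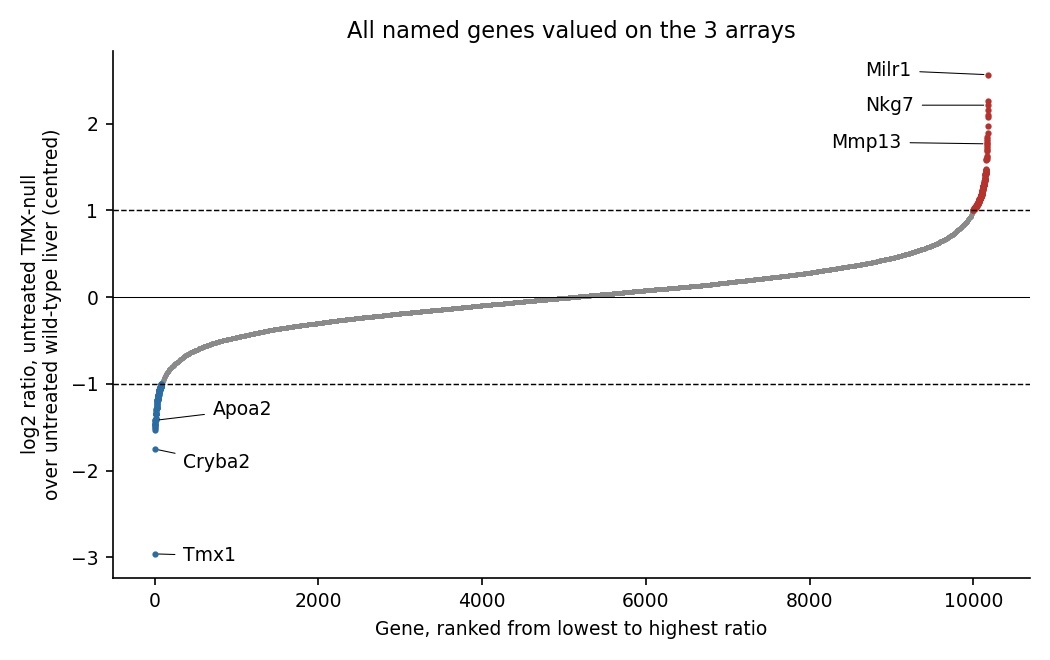
Centred log2 ratio of untreated TMX-null over untreated wild-type liver (vertical axis) for each of 10179 genes, ranked from lowest to highest (horizontal axis), with 1 point per gene and dashed lines at 2-fold. Red points are the 181 genes at least 2-fold higher and blue points the 85 at least 2-fold lower, with Tmx1 at -2.96 below all others.

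Tmx1 had the lowest ratio of the 10179 genes, -2.96, a 7.78-fold difference. Its ratio was 0.59 on the treated wild-type array and -3.88 on the treated TMX-null array, so both TMX-/- samples were low and the wild-type sample was not. The other TMX genes stood near the middle of all genes: Tmx2 at -0.11, Tmx3 at -0.12 and Tmx4, which was valued on this array alone, at 0.16. Of the other soluble and membrane-bound disulfide isomerases none reached 2-fold. Dnajc10, the ERdj5 reductase that aids the disposal of misfolded proteins, came closest at 0.998, just under the threshold. Pdia3 (ERp57), which acts on glycoproteins held by calnexin and calreticulin, stood at 0.53. Erp44, which retrieves oxidoreductases from the secretory pathway, stood at 0.47. Below 0 the lowest after Tmx1 were Pdilt at -0.33, Txndc12 (ERp18) at -0.25 and Pdia6 at -0.15. The median of the 16 measured isomerases was -0.03, Tmx1 included, with 6 above 0 and 10 below. The general isomerase P4hb, at -0.08, and the ER oxidases Ero1b at -0.15 and Ero1a at 0.38 were also within 1.5-fold, as were the 8 ER oxidation and peroxidase genes as a group (median -0.03).

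Among cytosolic and mitochondrial thioredoxins, peroxiredoxins and glutaredoxins, 1 of 23 genes reached 2-fold. This was Txnip, which binds and inhibits thioredoxin, at 1.03. Selenow stood at -0.60, Txnrd3 at -0.52 and Txnl4b at -0.47, and the median of the group was -0.05. The 20 genes nearest Tmx1 on chromosome 12, 10 on each side, had a median of 0.07 and ran from -1.34 to 0.65. Both genes adjoining Tmx1 in this order, Pygl (liver glycogen phosphorylase) at -0.09 and Frmd6 at 0.25, were within 1.5-fold. Among these 20 genes, 2700049A03Rik at -1.34 and Ccdc175 at -1.10 were 2-fold lower, against 0.835% of all genes, and none was 2-fold higher. In TMX-null against wild-type liver after LPS/GalN, 2700049A03Rik stood at -0.26 and Ccdc175 at -0.53, both within 1.5-fold. The medians of the 20 chromosomes with at least 100 genes ran from -0.08 to 0.06.

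Genes of cholesterol synthesis were lower in TMX-null liver almost along the whole pathway. Of 15 measured enzymes 14 lay below 0, with a median of -0.64 and a range from -1.24 to 0.03; over all genes the median is 0. Mvd and Dhcr7 were 2-fold lower (Dhcr7 just under 2-fold, at -0.998, when centred on housekeeping genes), 8 of the 15 were at least 1.5-fold lower, against 5.56% of all genes, and none was 1.5-fold higher. Mvd, which decarboxylates mevalonate diphosphate to the isoprenoid unit, stood at -1.24, and Mvk, the kinase earlier in the mevalonate pathway, at -0.79. Idi1, the isopentenyl diphosphate isomerase, stood at -0.71. Mvd was the lowest enzyme of the list, and Mvk and Idi1 lay in its lower part. At the squalene steps, which commit the pathway to sterols, Fdft1 (squalene synthase) stood at -0.98, Sqle (squalene epoxidase) at -0.90 and Lss (lanosterol synthase) at -0.33. Of the enzymes that turn lanosterol into cholesterol, Dhcr7, the last reductase, stood at -1.05, the demethylase Cyp51 at -0.67 and Msmo1 at -0.64. The remaining late enzymes were nearer to 0: Nsdhl and Lbr at -0.42 each, Sc5d at -0.39, Ebp at -0.32, Hsd17b7 at -0.25 and Tm7sf2 at 0.03. Hepatocyte markers as a whole also lay low (median -0.36, with 14 of 17 below 0 and no gene shared with the cholesterol list), and their part in the result was not tested.

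Promoters of these enzymes are printed because the genes moved together and because textbook sterol control acts through SREBP with the helper factors NF-Y, which binds the CCAAT box, and Sp1, which binds the GC box. Promoter sequences are those of RefSeq on GRCm38.p6, the 250 bases before each annotated start, in the direction of transcription. The letters CCAAT on either strand are in capitals, so that ATTGG is the box read on the other strand. Mvd (chr8:122443423-122443672, minus strand) was the lowest enzyme. Mvk (chr5:114444019-114444268, plus strand) has 5 boxes, the most of the list. Msmo1 (chr8:64733579-64733828, minus strand) is the middle gene of the list by its ratio, and Tm7sf2 (chr19:6067851-6068100, minus strand) is the enzyme that was not lower.
Mvd: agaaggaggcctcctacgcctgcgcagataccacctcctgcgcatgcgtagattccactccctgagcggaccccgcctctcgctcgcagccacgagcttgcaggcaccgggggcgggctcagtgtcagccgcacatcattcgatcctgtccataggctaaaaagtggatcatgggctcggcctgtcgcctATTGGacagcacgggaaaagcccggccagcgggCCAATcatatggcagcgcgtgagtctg
Mvk: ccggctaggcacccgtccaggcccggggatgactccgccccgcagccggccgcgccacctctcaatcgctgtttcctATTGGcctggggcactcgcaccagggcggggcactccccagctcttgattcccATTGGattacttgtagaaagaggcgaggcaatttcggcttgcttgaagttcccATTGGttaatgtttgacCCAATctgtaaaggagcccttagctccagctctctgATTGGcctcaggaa
Msmo1: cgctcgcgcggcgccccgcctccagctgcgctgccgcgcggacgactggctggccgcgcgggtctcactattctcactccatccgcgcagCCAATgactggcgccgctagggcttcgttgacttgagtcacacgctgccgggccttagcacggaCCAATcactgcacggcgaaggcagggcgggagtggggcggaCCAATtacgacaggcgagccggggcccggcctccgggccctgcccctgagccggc
Tm7sf2: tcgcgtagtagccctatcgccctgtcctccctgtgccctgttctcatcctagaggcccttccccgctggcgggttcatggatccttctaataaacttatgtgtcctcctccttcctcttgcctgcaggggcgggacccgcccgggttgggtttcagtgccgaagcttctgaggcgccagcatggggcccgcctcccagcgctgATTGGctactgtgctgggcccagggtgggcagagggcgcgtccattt
All 13 of the measured enzymes with a promoter in the table held at least 1 CCAAT box, against 39.9% of 8244 measured genes with a promoter. All 13 also held a GC box (GGGCGG, either strand), against 59.8%. Fdft1 and Sqle were not in the table. The core of the sterol regulatory element, searched as TCACNCCAC on both strands with N for any base, was found in 0 of the 13 windows and in 1.31% of all. The CCAAT box did not separate genes by their ratio: over all genes the median was -0.02 with the box and 0.01 without it, and Tm7sf2 carries it too. When only the first annotated start of each gene was read, 92.3% of the cholesterol promoters and 36.0% of all held the box. A match of letters is a description and no evidence of binding.

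**Figure D2:**
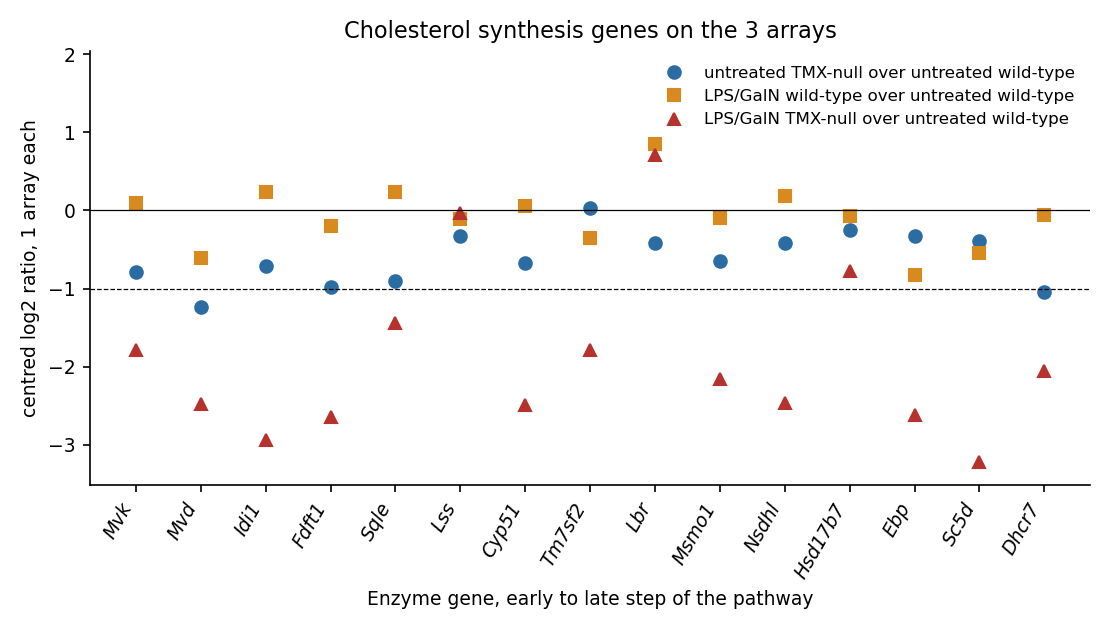
Centred log2 ratio over untreated wild-type liver (vertical axis) of 15 cholesterol synthesis genes in pathway order (horizontal axis), with 1 point per array for untreated TMX-null liver (circles), treated wild-type liver (squares) and treated TMX-null liver (triangles). Circles lie below 0 for 14 of the 15 genes, with a median of -0.64; the reference is labelled as untreated wild-type liver on all 3 arrays.

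On the other arrays, whose reference is labelled as untreated wild-type liver too, the same enzymes had a median of -0.06 in treated wild-type liver and of -2.16 in treated TMX-null liver. Mvd, for example, stood at -1.24 in untreated TMX-null, at -0.62 in treated wild-type and at -2.48 in treated TMX-null liver. Dhcr7 stood at -1.05, -0.06 and -2.06 in the same order. Both were lowest in treated TMX-null liver, with untreated TMX-null liver in the middle.

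Genes of sterol uptake and regulation lay on either side of 0. Over these 16 genes 11 were below 0 and the median was -0.13. At least 1.5-fold lower were 2, against 5.56% of all genes, and 1 was 2-fold higher, against 1.78%. Srebf1, whose SREBP1 proteins drive mainly fatty acid synthesis, stood at -0.80 and Srebf2, whose product drives cholesterol synthesis, at -0.63. The SREBP target Insig1, which retains SREBP in the ER, stood at -0.40, and Scap, its escort, at -0.11. Nr1h2 and Nr1h3, the oxysterol receptors LXR, stood at -0.49 and -0.46. Against these, Soat1, which esterifies cholesterol in macrophages and other cells, was 2-fold higher at 1.09, while the hepatocyte enzyme Soat2 stood at -0.41. Npc1, which exports cholesterol from lysosomes, stood at 0.47 and Abcg1 at 0.43.

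Fatty acid synthesis followed the same direction with smaller ratios. Of 20 lipogenic genes 16 were below 0 and the median was -0.36. At least 1.5-fold lower were 5, against 5.56% of all genes, and none reached 2-fold. The lowest were Acss2, which activates acetate, at -0.88, Thrsp (Spot 14), a carbohydrate-responsive lipogenic factor, at -0.83 and Acly, which makes cytosolic acetyl-CoA, at -0.68. Fasn, the fatty acid synthase, stood at -0.66. Lpin1, a phosphatidate phosphatase that is also induced by fasting, went the other way at 0.88, and no other member lay above 0.05 (Elovl5).

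Fatty acid breakdown did not share this shift. The 20 oxidation enzymes had a median of 0.04, with 13 above 0, and all lay within 1.5-fold. They ran from Etfb, an electron carrier, at -0.31 to the peroxisomal and mitochondrial isomerase Eci2 at 0.56, with Ehhadh and Acadl at 0.39 each. Ppara itself, the fasting receptor that controls them, was 2-fold higher at 1.09, and its target Fgf21, a fasting hormone of the liver, stood at 0.997, just under the threshold. The 13 genes of this list, Ppara and Fgf21 included, lay on either side of 0, with Fabp1 at -0.83, Slc27a1 at -0.67 and Pdk4 at -0.54 the lowest. Their median was 0.10, and -0.12 over the 14 members valued on this array. Igfbp1, which binds insulin-like growth factors and is raised by fasting in liver, was 2-fold higher at 1.14. The gluconeogenic co-activator Ppargc1a stood at 0.58, Irs2 at 0.40 and Pck1 at 0.36, with Gpt at -0.47 the lowest of these 12 fasting genes (median 0.12). The 15 glycolysis genes had a median of -0.15, with 5 above 0 and 3 at least 1.5-fold lower, against 5.56% of all genes. These 3 were Slc2a1 at -0.93, Pfkl, the liver phosphofructokinase, at -0.87 and Pklr, the liver pyruvate kinase, at -0.76, and the muscle-type kinase gene Pkm was the highest at 0.92. Feeding state at sampling is not given in the sources used here.

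Genes that mark hepatocytes and their secreted products were mostly below 0, with few at 2-fold. Among 17 hepatocyte markers 6 were at least 1.5-fold lower, against 5.56% of all genes. None was 1.5-fold higher, against 6.98% of all genes, and the median of the markers was -0.36. Cyp2e1, a pericentral P450 enzyme, stood at -0.96, the secreted fetuin gene Ahsg at -0.93, Fabp1 at -0.83, the thyroxine carrier Ttr at -0.80 and albumin (Alb) at -0.73. The 3 members above 0 were the receptor gene Hnf4a at 0.04, Tat at 0.26 and Pck1 at 0.36. In treated wild-type liver, over the same kind of reference, the hepatocyte markers had a median of -0.27. The part of the reference RNA in these ratios was not tested. In bulk RNA, fewer cells of a type and less RNA per cell cannot be told apart.

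Apolipoproteins and lipoprotein enzymes had a median of -0.26, with 15 of 17 below 0. Apoa2, the second major protein of high-density lipoprotein, was 2-fold lower at -1.42 and 11th from the lowest of all genes. Pltp, which transfers phospholipids between lipoproteins, stood at -0.91 and Apoe at -0.74. The main structural genes were closer to 0, with Apob at -0.53 and Apoa1 at -0.26, while Lpl stood at 0.49 and Apoc2 at 0.25. Plasma carriers of hormones and vitamins shared 4 genes with the hepatocyte markers and had a median of -0.32. The corticosteroid carrier Serpina6 stood at -0.83, and the members above 0 were Igfbp1 at 1.14 and Igfbp2 at 0.33. In treated wild-type liver, over the same kind of reference, the apolipoprotein list had a median of -0.36 and the carriers one of -0.52. Apoa2 stood at -2.17 there.

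All 7 measured urea cycle genes were below 0, from the lyase Asl at -0.56 to the carrier Slc25a13 at -0.01. Nags, which makes the activator of the cycle, stood at -0.48, Cps1 at -0.29, Arg1 at -0.22, Otc at -0.20 and Slc25a15 at -0.17. None of them was 1.5-fold lower. Of 29 amino acid breakdown genes 26 were below 0, with a median of -0.23. Those furthest down act on sulfur amino acids and tyrosine: Cth, which makes cysteine, at -0.88, Mat1a, which makes the methyl donor S-adenosylmethionine, at -0.67 and Hpd at -0.65. Dbt (0.43), Tat (0.26) and Amdhd1 (0.17) were the exceptions. After LPS/GalN, the same list lay far lower in TMX-null than in wild-type liver, with a median difference of -1.503. Treated wild-type liver itself, over the same kind of reference, had medians of -0.28 for the urea cycle and -0.54 for amino acid breakdown.

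Other hepatocyte functions were nearer to the middle. The 20 genes of bile acid synthesis and transport had a median of -0.12, from Nr1h4, the bile acid receptor FXR, at -0.55, Akr1d1 at -0.50 and Cyp7a1, which sets the rate of synthesis, at -0.34 to its repressor Nr0b2 (SHP) at 0.45. Xenobiotic P450 genes had a median of -0.14 over 30, with 1 at 2-fold, Cyp1b1 at 1.18, which in liver belongs mainly to cells other than hepatocytes. Clotting factors had a median of -0.10, with F10 at -0.86 the lowest and F8, which endothelial cells make, the highest at 0.51. The highest of 22 complement genes were the 3 chains of C1q, which macrophages make, at 0.80 (C1qa), 0.67 (C1qb) and 0.80 (C1qc). The lowest were the hepatocyte products Mbl2 at -0.56, C3 at -0.51 and Vtn at -0.45, and the list had a median of -0.15 and a mean of 0.01. Glutathione transferases and NRF2 targets had a median of -0.12, from Mgst1 at -0.70 to Gsta2 at 0.84. Nuclear factors of the hepatocyte were near 0 in the middle (median -0.05, mean 0.05), with Cebpa at -0.65 and Nr1i2 at -0.59 low, and Ppara and Foxa3 (1.02) 2-fold higher.

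**Figure D3:**
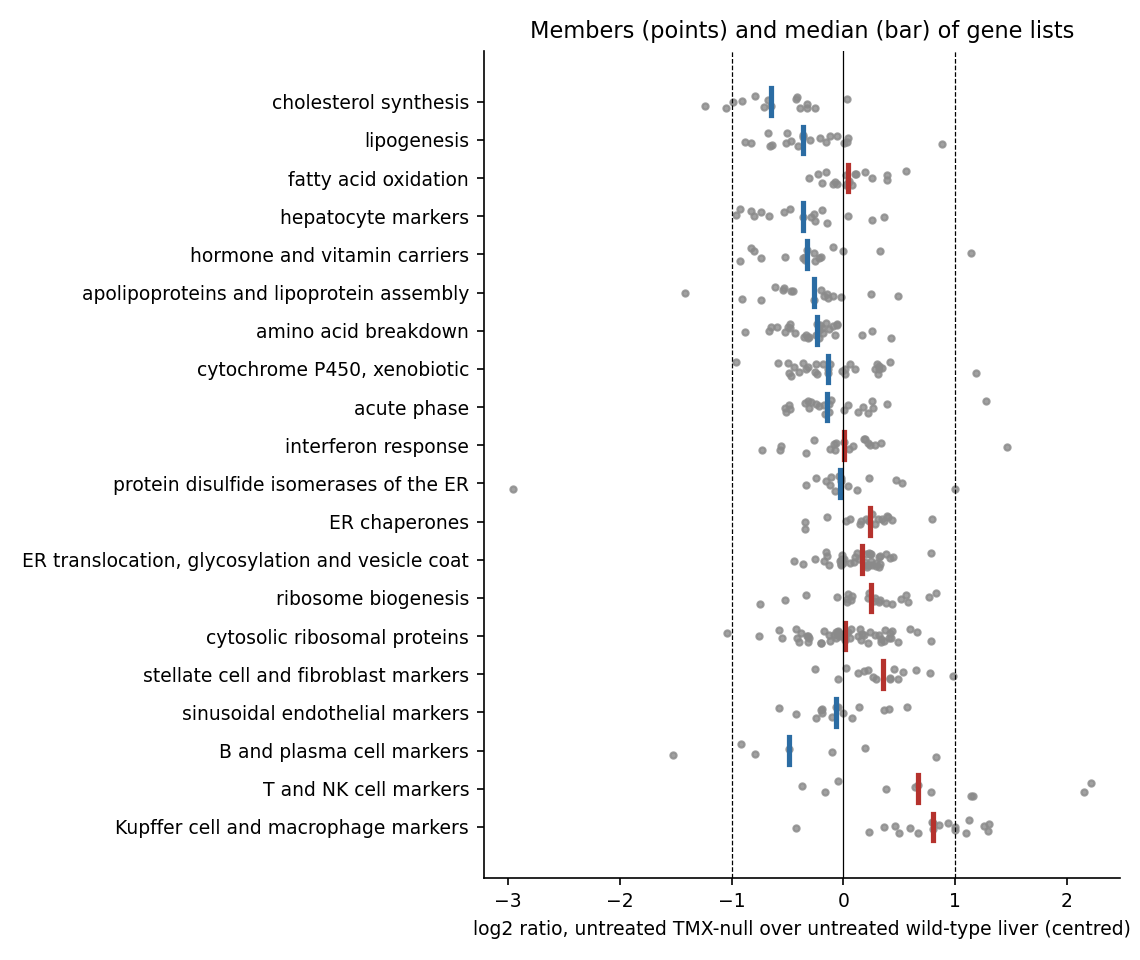
Centred log2 ratio of untreated TMX-null over untreated wild-type liver (horizontal axis) for the members of 20 gene lists (rows), with 1 grey point per gene, a bar at the list's median (blue below 0, red above) and dashed lines at 2-fold. Cholesterol synthesis has the lowest median of those drawn (-0.64) and Kupffer cell and macrophage markers the highest (0.80); points of different rows can be the same gene.

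In the ER, chaperones lay slightly above 0 and the regulators of the unfolded protein response did not. Of 18 chaperones and folding helpers 15 were above 0, with a median of 0.24. Creld2, a stress-induced ER protein, was the highest at 0.79 and the sole member at 1.5-fold. The cyclophilin Ppic stood at 0.43, the BiP partners Dnajb9 and Sdf2l1 at 0.40 and 0.39, and Hspa5, which encodes BiP, the central chaperone and stress sensor, at 0.36. Mesd and Calr, both at -0.34, were the lowest. Each of these ratios but that of Creld2 is smaller than the SD of a single probe (0.42) or about as large. In treated wild-type liver, over the same kind of reference, the chaperone median was 0.43. In TMX-null against wild-type liver after LPS/GalN the chaperone median was -0.35, with 13 of 18 below 0.

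Of the 3 stress sensors, Ern1 (IRE1) stood at -0.09, Atf6 at -0.17 and Eif2ak3 (PERK) at 0.35. Xbp1, whose messenger is spliced by IRE1, stood at -0.01; the ratio does not separate its spliced form. Downstream of PERK, Chac1, which degrades glutathione, stood at 0.90 and Ddit3 (CHOP) at 0.28, but Atf4 at -0.25 and Trib3, a target of both, at -0.79. The 17 regulators had a median of -0.01 and a mean of 0.12, and the median over the 18 valued on this array was 0.03. In ER-associated degradation, Uggt2 at -0.96 and Ufd1 at 0.89 marked the ends, the ligase pair Syvn1 and Sel1l stood at -0.56 and -0.49, and the median of 25 genes was 0.04. The machinery that imports, glycosylates and exports secretory proteins had a median of 0.17, with 27 of 40 above 0 and the signal peptidase subunit Sec11c the highest at 0.78. Its median was 0.33 in treated wild-type liver, over the same kind of reference.

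Promoters of a pair of chaperones are printed because the ER stress response element, the letters CCAAT and CCACG with 9 bases between them, is the textbook control site of this group. It was found on either strand in 6 of 15 chaperone promoters (Hspa5, Hsp90b1, Calr, Canx, Dnajc3 and Creld2) and in 17 of all 8244 (0.206%). It contains a CCAAT box, so each such promoter also counts among those with the box. The element is in capitals, other CCAAT boxes being left in lower case. Creld2 (chr15:88819396-88819645, plus strand), where the element reads on the opposite strand, was the highest chaperone. Hspa5 (chr2:34771840-34772089, plus strand) is the reference gene of the response.
Creld2: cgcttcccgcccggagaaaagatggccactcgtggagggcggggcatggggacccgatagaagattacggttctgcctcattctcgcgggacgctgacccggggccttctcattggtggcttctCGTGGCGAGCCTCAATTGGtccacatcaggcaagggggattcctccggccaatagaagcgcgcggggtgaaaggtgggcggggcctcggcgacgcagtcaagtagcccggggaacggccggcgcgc
Hspa5: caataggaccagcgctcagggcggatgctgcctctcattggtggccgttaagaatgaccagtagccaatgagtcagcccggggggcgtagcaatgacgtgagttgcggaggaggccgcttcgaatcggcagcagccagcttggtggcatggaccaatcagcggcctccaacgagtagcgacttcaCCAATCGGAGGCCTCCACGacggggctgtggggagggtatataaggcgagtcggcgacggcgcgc
The element did not mark the higher chaperones. With it, the median of the list was 0.23, with Calr at -0.34 among the carriers, and without it 0.29, where Dnajb9 and Sdf2l1 lie.

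Genes of growth and division gave a mixed picture. Of 22 ribosome biogenesis genes 18 were above 0, with a median of 0.25; Nop58, Nhp2 and Dkc1, which belong to the small nucleolar ribonucleoproteins, stood at 0.83, 0.77 and 0.58, and Nop2 at -0.75. Ribosomal proteins showed no such shift: the 54 cytosolic ones had a median of 0.01, with Rpl38 alone at 2-fold (-1.04), and the 74 mitochondrial ones a median of 0.04 with none at 2-fold. Ccne2 and Ccne1, the cyclins E of S phase entry, were 2-fold higher at 1.37 and 1.16. The other replication and mitosis genes lay on either side, with Rrm2 at 0.77, Ccna2 at 0.64 and Mki67 at 0.55 high, Mcm2 at -0.83 and Tk1 at -0.69 low, and a median of 0.18 over 25. Of the immediate early genes, Myc was 2-fold lower at -1.04, followed by Zfp36 at -0.69, and Nr4a1 was highest at 0.83. The median of these 16 was -0.14, and 0.01 over the 17 valued on this array.

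Several hormone and rhythm genes of the liver were low. Hamp and Hamp2, closely similar hepcidin genes whose probes may share signal, stood at -1.27 and -1.02; hepcidin is the hormone that blocks iron export. The ferritin genes Ftl1 and Fth1 stood at -0.82 and -0.44, and their partners at the high end of the 20 iron genes were Smad7 at 0.80 and Steap3 at 0.74. The copper protein ceruloplasmin (Cp), which oxidises iron for loading onto transferrin, was 2-fold higher at 1.28 and the highest of 24 acute phase genes, whose median was -0.15. Cish, a feedback inhibitor induced by growth hormone through STAT5, was 2-fold lower at -1.05, while the related Socs2 stood at 0.15 and Igf1 at 0.00. Of 12 genes with higher expression in female liver 10 were below 0 (median -0.42, with Sult1e1 at -0.81 and Cyp17a1 at -0.51 after Hamp2), and of 7 male-biased genes 5 (median -0.14, lowest Hsd3b5 at -0.63). In treated wild-type liver, over the same kind of reference, the medians were -1.16 for the female-biased and 0.65 for the male-biased genes. Of 17 clock genes 12 were below 0. The lowest were Usp2 at -0.81, Nr1d2 (REV-ERB beta) at -0.79, the output gene Dbp at -0.73 and the core activator Arntl (BMAL1) at -0.62. Arntl and its targets Nr1d2 and Dbp normally peak at opposite times of day. Time of day at sampling is not given in the sources used here, and its part in these ratios was not tested.

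Kupffer cell and macrophage markers had the highest median of the 71 lists, as cholesterol synthesis had the lowest. Of 19 markers 18 were above 0, the median was 0.80, 14 were at least 1.5-fold higher, against 6.98% of all genes, and 5 were 2-fold higher, against 1.78%. The 2-fold higher members were Fcgr1, a high-affinity receptor for antibody, at 1.30, the complement receptor Vsig4 at 1.30, Cd5l, a secreted survival factor of macrophages, at 1.25, the folate receptor Folr2 at 1.13 and the scavenger receptor Marco at 1.10. Cd163, which takes up haemoglobin, stood at 0.999, just under the threshold, Aif1 at 0.99 and Timd4, a marker of embryo-derived Kupffer cells, at 0.79. The general macrophage genes were less raised, with Csf1r, the receptor for their growth factor, at 0.23 and Adgre1 (F4/80) at 0.37, as was the Kupffer cell lectin Clec4f, at 0.50. Mrc1, which sinusoidal endothelium also expresses, was the exception at -0.43. The list was high on the other arrays too, which also have untreated wild-type liver as reference: its median was 1.202 for wild-type and 1.47 for TMX-null liver after LPS/GalN. Vsig4 stood at 1.81 and 1.45 there, Cd5l at 1.77 and 2.65, and Marco at 3.13 and 4.10. High macrophage ratios were thus shared by all 3 livers set against this reference, and the part of the reference RNA in them was not tested. Lysosomal genes, which macrophages hold in large amounts, had a median of -0.05 over 25, although the macrophage protease Ctss was 2-fold higher at 1.41.

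Of 11 measured T and NK cell markers 8 were above 0, with a median of 0.67, and 4 were 2-fold higher, against 1.78% of all genes. These were Nkg7, a protein of cytotoxic granules, at 2.21, the T cell kinase Txk at 2.16, the T cell receptor chain Cd3g at 1.16 and the activating receptor Klrk1 (NKG2D) at 1.14. Cd3d stood at 0.78, Ccl5 at 0.67, and the granzymes Gzma and Gzmb at 0.64 and 0.38. The signalling genes Cd247, Zap70 and Tbx21 did not follow, at -0.05, -0.17 and -0.37, and 19 of the 30 listed markers had no value on all 3 arrays. Here too the other arrays were about as high over the same kind of reference, with medians of 0.62 for wild-type and 0.79 for TMX-null liver after LPS/GalN. Nkg7 stood at 1.60 and 0.79 there, Txk at 1.01 and 1.49 and Klrk1 at 1.13 and 1.10. B and plasma cell markers went the other way in 5 of 7, with Tcl1 at -1.53, Cd22 at -0.92, Mzb1 at -0.79, Sdc1 at -0.49 and Ms4a1 (CD20) at -0.10, but Blnk at 0.19 and Cd79b at 0.83. With members spread from -1.53 to 0.83 the B cell list has no common direction.

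Neutrophil and monocyte markers were few and had medians of -0.18 over 5 and 0.17 over 3. S100a8 stood at 0.28, S100a9 at -0.18, Ly6g at -0.19, Retnlg at -0.06 and Csf3r at -0.74, and of the monocyte genes S100a4 at 0.71, Plac8 at 0.17 and Fn1 at 0.02. Among the few measured mast cell genes, Milr1 (Allergin-1), an inhibitory receptor of mast cells and other myeloid cells, was the highest of all 10179 genes at 2.56, Kit stood at 0.73 and Mcpt4 at -0.15. Stellate cell and fibroblast markers were above 0 in 14 of 16, with a median of 0.35 and none at 2-fold; the collectin Colec10 stood at 0.98, Ngfr at 0.77 and Lum at 0.65, while the activation markers Acta2 and Col3a1 stood at 0.02 and 0.13. The stellate cell and fibroblast markers had a median of 0.46 in treated wild-type liver, over the same kind of reference. In the matrix list Mmp13, a collagenase, was 2-fold higher at 1.77 and Col6a3 stood at 0.91, with a median of 0.12. Sinusoidal endothelial markers had a median of -0.06, with Tie1 at -0.58 and Fcgr2b at 0.57 at the ends, and cholangiocyte markers of -0.15.

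Lists of genes that inflammation induces had medians near 0. Over 19 cytokines and chemokines the median was 0.12 and none reached 2-fold, with Ccl5 at 0.67, Ccl6 at 0.56 and Ccl24 at 0.55 the highest and Ccl9 at -0.38 and Il1b at -0.28 the lowest. Of 19 interferon-stimulated genes Oas1a alone was 2-fold higher (1.46), Gbp2 at -0.73 was lowest, and the median was 0.00. NF-kB targets had a median of 0.06, with Vcam1 at 0.70 the highest.

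**Figure D4:**
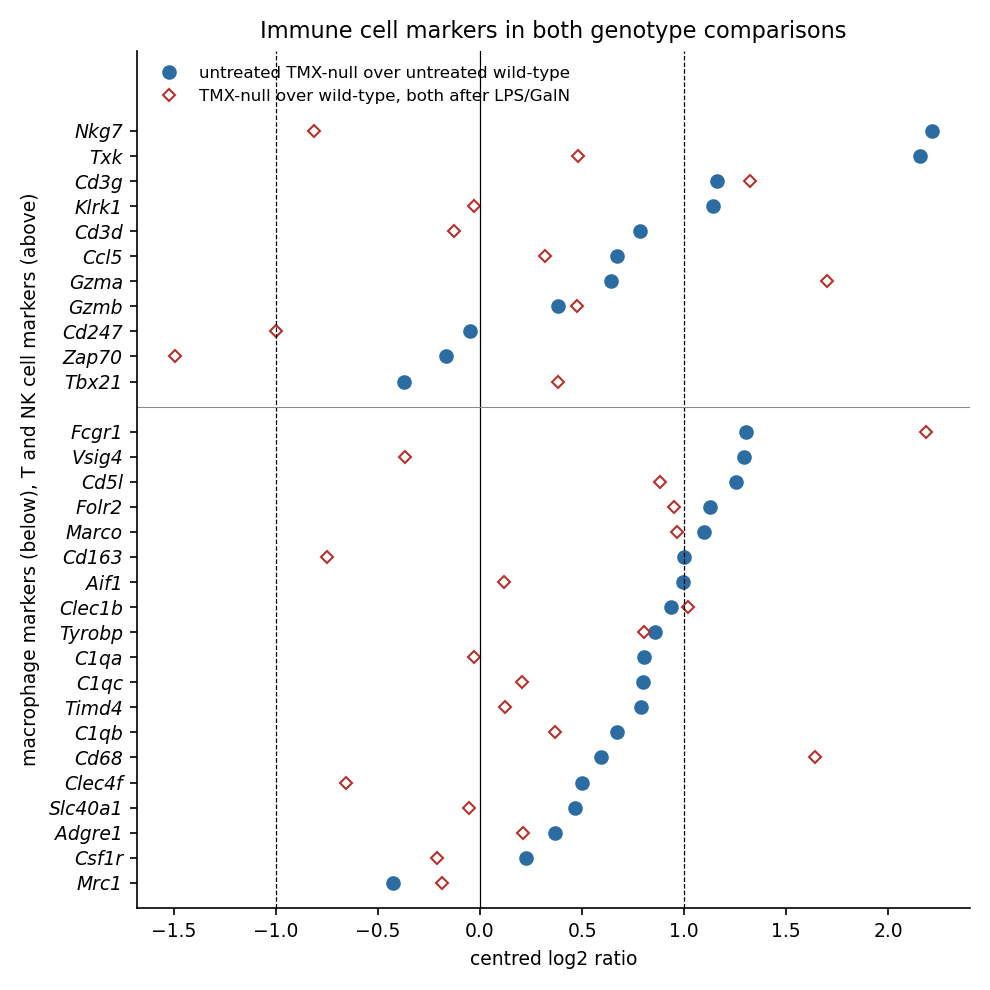
Centred log2 ratio (horizontal axis) of 11 T and NK cell markers (upper rows) and 19 Kupffer cell and macrophage markers (lower rows), with filled circles for untreated TMX-null over untreated wild-type liver, open diamonds for TMX-null over wild-type liver after LPS/GalN and dashed lines at 2-fold. Circles lie above 0 for 18 of the 19 macrophage markers, whose median is 0.80, while the diamonds of the same genes scatter around a median of 0.20.

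Many other groups stood close to the middle of all genes. Heat shock proteins had a median of -0.18 over 16, conjugation enzymes of -0.17 over 20, with the methyltransferase Inmt at -0.85 the lowest, and genes of peroxisome assembly of -0.16 over 13, with Pex13 at -0.77. The 34 subunits of respiratory complex I had a median of -0.07, the 16 of ATP synthase of -0.04 and the 18 genes of the tricarboxylic acid cycle of -0.05, with none at 2-fold. The 36 proteasome subunits stood at -0.01, 18 autophagy genes at 0.01, 18 cell death genes at -0.01 and 17 p53 targets at 0.09. Aminoacyl-tRNA synthetases stood at 0.10 over 15, with Farsb at 0.82 the highest. In the 12 genes of the amino acid response the stress factor Nupr1 was 2-fold higher at 1.01, beside a median of -0.16. Zinc finger genes named Zfp were above 0 in 86 of 133, with a median of 0.17 and Zfp983 alone at 2-fold (1.59).

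The genes at either end came from many processes and tissues. Behind Milr1 came Tex37 at 2.26, Nkg7, Txk, Olfr107 at 2.10, the cystatin Cst6 at 2.08, Sntn, a protein of cilia, at 1.97 and Sema7a at 1.89. Also among the 20 highest, the lectin Clec4a3 stood at 1.83, the antibody receptor Fcgr4 at 1.69, the eosinophil-type ribonucleases Rnase2b and Ear6, close paralogs whose probes may share signal, at 1.63 and 1.62, Ifi205 at 1.74 as the mean of discordant probes, and Tnfsf13b, the B cell survival factor BAFF, at 1.59. In treated wild-type liver, Clec4a3 stood at 1.83, Fcgr4 at 1.76, Rnase2b at 2.03, Ear6 at 2.08 and Tnfsf13b at 1.61, none of them lower than here. Milr1, by contrast, stood at 0.68 there. The rest of the 20 were Nupl1 at 1.84, Esf1 at 1.80, Rab25 at 1.77, Mmp13, the ciliary gene Cep290 at 1.72 and Fhad1 at 1.69. Below Tmx1 came the lens gene Cryba2 at -1.75, Tcl1, the retinal regulator Rgs9 at -1.51, the homeobox gene Cdx4 at -1.499 and Dmkn at -1.48. These were followed by Nudcd3 and Ltbp3 at -1.47, the tyrosine kinase Fer at -1.46, Ccdc166 at -1.43, Apoa2, Schip1 and Clstn1 at -1.42, and the membrane protease Prss8 at -1.41. Nt5e, the ectoenzyme CD73 that makes adenosine, stood at -1.39, Phf1 and A730049H05Rik at -1.35, and 2700049A03Rik, Slamf1 and Sdr39u1 at -1.34. Receptors of the nose varied as well: of 155 olfactory receptors 5 were 2-fold higher and 3 lower (5.16% in all), against 1.78% and 0.835% of all genes. Their median was -0.12 and their SD 0.51, against an SD of 0.40 over all genes. Over the 253 valued on this array their median was 0.12.

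The genotypes can be compared a second time after LPS/GalN, from the difference between the treated arrays, in which the reference cancels if it was the same preparation on both. That difference shares no sample with untreated TMX-null liver. It gave 981 genes 2-fold higher in TMX-null liver (9.64%) and 1081 lower (10.6%). Of the 181 genes higher without treatment, 47 (26.0%) were 2-fold higher after it and 9 were 2-fold lower; 120 (66.3%) were above 0, against 50.6% of all genes. Of the 85 genes lower without treatment, 15 (17.6%) were 2-fold lower after it and 7 higher; 54 (63.5%) were below 0. Whether these shares exceed the variation between mice could not be tested with 1 array per group.

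Tmx1 led the 15 genes that were 2-fold lower in both, at -2.96 and -4.47. Mvd (-1.24 and -1.87) and Dhcr7 (-1.05 and -1.997) represented cholesterol synthesis. After treatment 12 of the 15 measured enzymes of that pathway were 2-fold lower in TMX-null than in wild-type liver, against 10.6% of all genes. High shares were not particular to it: 27 of 29 amino acid breakdown, 24 of 30 xenobiotic P450 and 14 of 20 lipogenic genes were 2-fold lower. Of hepatocyte markers 8 of 17 were, and of fatty acid oxidation enzymes 1 of 20. Other genes lower in both were Aldh1l1, a folate enzyme of hepatocytes, at -1.07 and -2.21, and Csad, which makes taurine, at -1.11 and -1.48. Tcl1 stood at -1.53 and -1.04, the kinase Map3k11 at -1.32 and -1.07 and the cytokine receptor chain Il12rb2 at -1.31 and -1.04. Khsrp, an RNA decay factor, stood at -1.02 and -1.23. The remainder were A730049H05Rik, 4930483J18Rik, Sall1, Rab3a, Pspn and Lacc1.

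Values are given here for 15 of the 47 genes higher in both, which were picked after they were seen. Milr1 stood at 2.56 and 2.40, Mmp13 at 1.77 and 2.44, Fcgr1 at 1.30 and 2.18, the leukocyte surface genes Cd48 at 1.47 and 1.71 and Cd53 at 1.18 and 1.65, and the platelet and leukocyte kinase substrate Plek at 1.13 and 2.38. The lectin Clec4n stood at 1.37 and 1.74, Cd3g at 1.16 and 1.32, and the splenic and bone marrow macrophage factor Spic at 1.07 and 1.47. Others were Oas1a (1.46 and 1.98), Igfbp1 (1.14 and 1.31), Ccne2 (1.37 and 1.36), Igf2, a fetal growth factor, at 1.07 and 1.34, the kinase Dyrk3 at 1.24 and 2.60 and the potassium channel subunit Kcne4 at 1.13 and 3.70. Without values, the remaining genes were Ldb2, Nupr1, Kif22, Pgm3, Cyfip2, Gngt2, Zc3h12a, Ifi203, Gja1, Pdgfc, Ten1, Far1, Cd55, Cd52, Tmem181a, Cpt1b, Ms4a6b, Sfpq, Pinx1, Cdr2, Fabp7, Glipr1, Bco1, Ms4a4b, Ephb6, Frzb, Fuz, Gpr137b, Ear6, Rnase2b, Cep290 and Ifi205. The macrophage list as a whole had a median of 0.20 after treatment, with 3 of 19 genes 2-fold higher, against 9.64% of all genes. Nkg7 stood at -0.81 there.

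**Figure D5:**
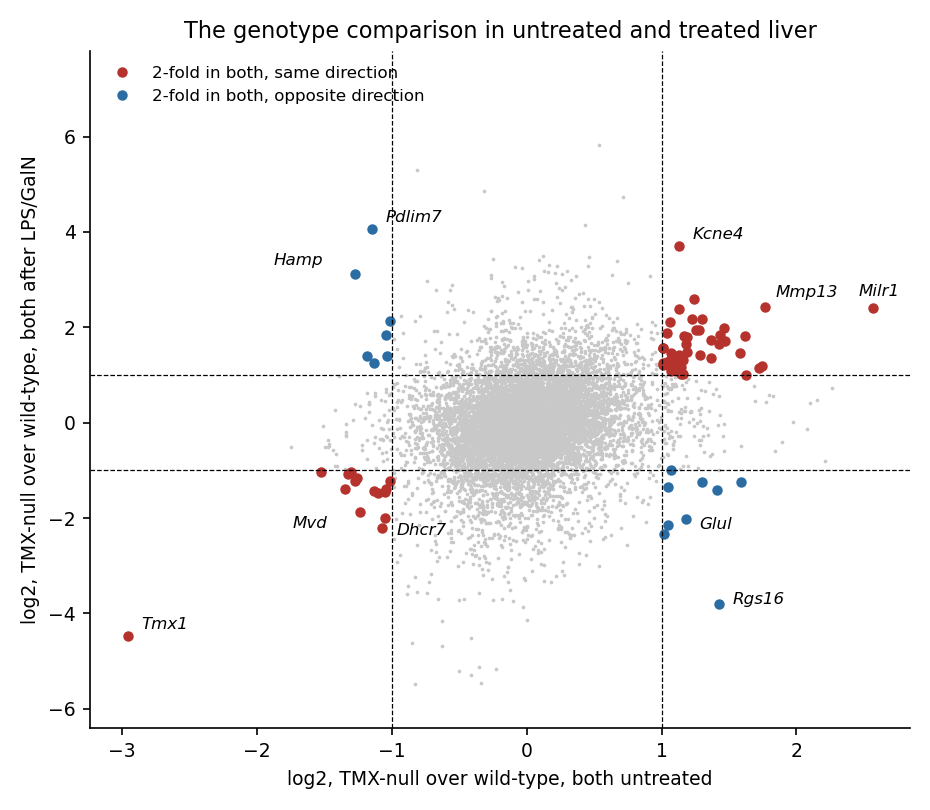
Log2 ratio of TMX-null over wild-type liver without treatment (horizontal axis) against the same ratio after LPS/GalN (vertical axis), with 1 point per gene for 10179 genes and dashed lines at 2-fold. Red points are the 47 higher and 15 lower genes at 2-fold in the same direction in both, and blue points the 16 genes at 2-fold in opposite directions.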

How the data were processed

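Liver RNA was measured on 3 arrays with 2 channels, of which 1 holds this comparison. The authors deposited a table of log ratios, taken as log2 values, for 23473 rows; its logarithm base, ratio direction, normalization and reason for blanks are not stated in the sources used here. RNA was extracted with a miRNeasy kit and amplified as amino allyl RNA, per the labels' protocols. Of the rows, 16631 carry 1 symbol in the platform annotation and 6842 none; 3947 symbols were updated through RefSeq. Where a gene had several probes (86 genes) their mean was taken, and the values were centred on the median of 10179 genes valued on all 3 arrays (-0.03 before centring). Genes were counted at 2-fold and 1.5-fold. There are no replicates, so there is no test, and having 1 array limits the precision.

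Gene lists (71) and families by symbol (32), like the comparison itself, were chosen with earlier results of these data known. Genes were named by a rule. It took the TMX family and the 20 highest and 20 lowest genes. From a list it took members at 2-fold, or else its 3 highest and 3 lowest. All members of lists with up to 12 measured genes were taken, and the 10 measured neighbours on each side of Tmx1. Genes at 2-fold in the same direction in both genotype comparisons were taken too. Lists near the middle are given with fewer members than the rule allows. Further list members and background genes were named after their values were seen. Alternatives were all genes on the array, other centring, only genes with 1 probe, annotation symbols and a natural logarithm. Python 3.11.15, pandas 2.3.3, numpy 2.4.6 and matplotlib 3.10.9 were used, and the counting was tested on simulated data. The simulated noise was smaller than the spread on this array, so that test does not show how many genes pass 2-fold by error.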

Additional observations from a re-analysis of the deposited data

Results flagged for a closer look

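In 16 genes the genotype ratio was at least 2-fold in opposite directions without and with LPS/GalN. The difference between the treatments was not tested, since each rests on 1 array per group. Lower in untreated TMX-null liver and higher after treatment were Hamp (-1.27 and 3.11), Smyd5 (-1.19 and 1.41), Pdlim7 (-1.14 and 4.06), Spryd3 (-1.13 and 1.24), Myc (-1.04 and 1.84), Rpl38 (-1.04 and 1.40) and the clock-related replication gene Timeless (-1.01 and 2.13). Higher in untreated TMX-null liver and lower after treatment were Dhdh (1.02 and -2.33), Otud4 (1.05 and -1.35), Pank1, which starts coenzyme A synthesis (1.05 and -2.14), Prr11 (1.07 and -1.001), glutamine synthetase Glul (1.18 and -2.02), Pik3ip1 (1.30 and -1.25), Dync2h1 (1.41 and -1.41), Rgs16 (1.43 and -3.81) and Zfp983 (1.59 and -1.23).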

How the results depend on the processing

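With all 11351 genes valued on the array, 566 were 2-fold higher and 90 lower, so that 86.3% of the 2-fold genes were higher, against 68.0% over the genes valued on all 3 arrays. Read as a natural logarithm, 484 genes were higher and 350 lower (58.0% higher). Without centring the counts were 160 and 99 (61.8% higher), and centred on housekeeping genes, whose median was -0.05, 206 and 64 (76.3%). Without the 86 genes that have several probes they were 180 and 85, and with the annotation's symbols 183 and 85. On all genes of the array the median of mast cell, basophil and eosinophil markers was 0.29 over 4 genes in place of 0.73 over 3, and that of crystallins turned from -0.32 over 4 genes to 0.0146 over 6. Of 24 list medians tried under 4 alternatives each, that of crystallins was the 1 that changed sign. Each of the 24 lay at least 0.2 from 0, so the 2 other centrings could not turn it. Over all 103 lists and families, 6 medians changed sign with all genes of the array: crystallins, PPARA targets (0.10 to -0.12), unfolded protein response regulators (-0.01 to 0.03), immediate early genes (-0.14 to 0.01), olfactory receptors (-0.12 to 0.12) and vomeronasal receptors (-0.12 to 0.28). Over 124 named genes no direction turned under the 2 other centrings. None could, since all were 2-fold in the main setting and the medians that set the shifts were -0.03 and -0.05. Of these genes 14 fell below 2-fold under 1 of the centrings. They were Cish, Dhcr7, Hamp2, Khsrp, Lacc1, Myc, Rpl38 and Timeless when centred on housekeeping genes, and Dhdh, Foxa3, Kif22, Ldb2, Nupr1 and Pgm3 without centring. The probe SD of 0.33 without Ifi205 was added after the data were seen. No paired analysis was possible because each group has 1 array.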

Other observations

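Genes without a value on all 3 arrays were left out of the report and lean one way. Of 1172 such genes on this array 382 were 2-fold higher and 5 lower, with a median of 0.60. The 403 valued on this array alone had a median of 1.01, with 203 at least 2-fold higher and none 2-fold lower. The 522 also valued on the treated wild-type array had a median of 0.35, and the 242 also valued on the treated TMX-null array one of 0.53. The rule behind blank cells is not given in the sources used here, and its part in this lean was not tested. Genes chosen from this set after their values were seen include the secreted phospholipase Pla2g2a at 3.10, the lens gene Bfsp1 at 3.25, the kinetochore gene Ndc80 at 3.09, the eosinophil receptor Ccr3 at 2.62, the chemokine Ccl4 at 1.59, the insulin receptor Insr at 1.48, the clock gene Npas2 at 1.41, the T cell co-receptor chain Cd8b1 at 1.22 and the leptin receptor Lepr at 1.06. Perforin (Prf1) stood at 0.69.

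Of 3401 rows without a gene name but with a value on all 3 arrays, 69 were 2-fold higher and 23 lower (2.71% in all), a share close to that of the named genes. Nfya, a subunit of the factor that binds the CCAAT box, was 2-fold lower at -1.13, and Sp1, which binds the GC box, 2-fold higher at 1.04; both were picked after their values were seen. Other single genes picked in that way are the glucose transporter Slc2a4 at -1.07, the activin chain Inhbb at -1.04, the branched-chain aminotransferase Bcat2 at -1.02 and the connexin Gja1 at 1.07.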
